A study of Mus musculus with 9 samples.

Results

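The RNA levels of Polycomb genes, trithorax genes and the demethylases of H3K27 and H3K4 were examined in mouse embryonic stem (ES) cells and in day 5 motor neuron cultures made from them. The list held 40 genes, and every array probe set that named a listed gene and no other gene was taken as a member. This gave 104 probe sets of 38 genes, out of 18194 genes with a probe set of their own on the array. Ash1l had no probe set named for it here. Both probe sets that name Rybp also name its pseudogene, so they were left out. RNA had been hybridised to 9 Affymetrix arrays, 3 in each of 3 groups. All cells were Ainv15 ES cells, a single line, in which doxycycline switches on V5-tagged Cdx2. The ES cells were collected at day 0 without treatment and had been grown on mitomycin-C-treated fibroblasts. The motor neuron cultures were embryoid bodies given retinoic acid at 1 µM and a hedgehog agonist at 0.5 µM from day 2 and collected at day 5. The third group had the same patterning, and on day 3 they also received bFGF (100 ng/ml) and a pulse of doxycycline (2 µg/ml) that lasted 6 to 8 hours. They are called caudalized cultures here, after the term in the labels. Doxycycline, Cdx2 and FGF were given together and cannot be told apart.

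Polycomb repressive complex 2 (PRC2) places methyl groups on lysine 27 of histone H3 through Ezh1 or Ezh2, with Eed and Suz12 required for its activity. Polycomb repressive complex 1 (PRC1) ubiquitinates histone H2A through Ring1 or Rnf2, and the canonical form reads H3K27 trimethylation through its CBX subunit, while trithorax complexes methylate H3K4 and oppose Polycomb silencing. Kdm6a and Kdm6b remove H3K27 methylation and Kdm5a and Kdm5b remove H3K4 trimethylation, and in the developing spinal cord this balance is known for holding Hox genes silent or open along the body axis.

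Levels are on the log2 scale, so that a difference of 1 is a doubling. A probe set was tested if it was over 4 on at least 3 of the 9 arrays, which 81 of the 104 probe sets were, in 36 genes. The other 23 included all those of Phf1 and Phf19, and 18 of them were under 4 on every array. A probe set was called higher or lower in limma at an adjusted p under 0.05 and a log2 difference of at least 1, with p-values adjusted by the Benjamini-Hochberg method over all 21557 tested probe sets. Errors after ± are the standard error (SE) of a log2 difference between groups of 3 arrays. Of the tested members, 8 probe sets were under 4 on all 3 ES arrays, so they could enter the test only through the day 5 groups. Folds against a group with values under 4 are given as lower bounds, with those values raised to 4.

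The promoters of 5 members are shown first, as examples. They were chosen as the genes with at least 2 tested probe sets, all called the same way between motor neuron cultures and ES cells, and with 1 promoter in the RefSeq table. Ezh1, Suz12 and Kmt2a were lower, and Bmi1 and Cbx8 were higher, in motor neuron cultures. For Ezh1, Suz12, Kmt2a and Cbx8, 1 probe set each lost its call when the processing was varied or an array was left out, as given below. Both Cbx8 probe sets were under 4 on all ES arrays, so they could be tested only through the day 5 groups, where they were higher. Each sequence is the 150 bases before the annotated start, 5′ to 3′ on the gene's strand, from RefSeq on GRCm38.p6. Capitals mark matches, on either strand, to GGGCGG (the GC box of Sp and KLF factors) or CCAAT (the box bound by NF-Y).
Ezh1, chr11:101226464-101226613, minus strand: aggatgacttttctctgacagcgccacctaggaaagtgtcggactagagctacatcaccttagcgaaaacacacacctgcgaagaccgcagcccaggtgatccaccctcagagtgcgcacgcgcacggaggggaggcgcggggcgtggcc
Suz12, chr11:79992956-79993105, plus strand: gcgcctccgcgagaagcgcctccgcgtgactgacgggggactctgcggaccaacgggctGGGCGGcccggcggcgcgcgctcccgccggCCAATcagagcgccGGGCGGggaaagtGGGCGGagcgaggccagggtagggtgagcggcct
Bmi1, chr2:18676868-18677017, plus strand: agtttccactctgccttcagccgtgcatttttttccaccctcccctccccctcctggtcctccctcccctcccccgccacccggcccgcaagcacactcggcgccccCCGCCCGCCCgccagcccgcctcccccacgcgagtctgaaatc
Cbx8, chr11:119040914-119041063, minus strand: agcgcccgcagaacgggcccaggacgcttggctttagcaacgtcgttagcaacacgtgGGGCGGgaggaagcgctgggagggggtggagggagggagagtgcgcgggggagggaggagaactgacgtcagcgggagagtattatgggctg
Kmt2a, chr9:44881290-44881439, minus strand: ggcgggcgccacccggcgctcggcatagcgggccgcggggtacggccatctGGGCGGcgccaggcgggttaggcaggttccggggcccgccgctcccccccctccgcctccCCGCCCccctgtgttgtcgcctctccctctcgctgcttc
The Suz12 stretch held 3 GC boxes and 1 CCAAT box, and those of Bmi1 and Kmt2a held 2 GC boxes each, overlapping in Bmi1. Cbx8 had 1 GC box, and the Ezh1 stretch had no match to any of the 6 motifs searched. Among the 46 promoters listed for 32 members, 69.6% had GGGCGG in the 250 bases before the start, against 32.7% of all 32851 promoters in the table. CCAAT was present in 34.8% of member promoters and 33.8% of all. The E2F motif TTTNNCGC was present in 4.35% of member promoters and 4.28% of all, and the ETS motif CCGGAAG in 2.17% and 6.91%. The Cdx2 motif TTTATNG had a match in 0 of the 46 member promoters and in 9.81% of all, and the retinoic acid receptor element, AGGTCA repeated after 5 bases, in 0 and in 0.00913%. No motif letters overlapped between different motifs in the stretches shown. The members' promoters had a median CpG ratio of observed to expected of 0.807 over 300 bases, against 0.384 for all promoters, and a median GC content of 64.3% against 52.7%.

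Cdx2 itself, the induced factor, was used to check the labels. Its probe set 1422074_at read 2.17 on all 3 ES arrays, and in motor neuron cultures it read 2.17, 2.17 and 2.24. On the caudalized arrays it read 8.27, 8.99 and 8.59, so the induced group stood apart on every array. Lists of cell type markers were read next. The mean level of 8 ES cell markers ran from 12.5 to 12.8 on the ES arrays and from 2.89 to 3.13 on the others, where 7 of the 8, Pou5f1 and Nanog among them, were under 4 on every array. The mean of 8 motor neuron markers ran from 3.27 to 3.62 on ES arrays, from 8.06 to 9.05 on motor neuron arrays and from 5.04 to 5.14 on caudalized arrays, where Lhx1, Chat and Isl2 were under 4 on every array. Chat was also under 4 on every motor neuron array. The 8 postmitotic neuron markers averaged 12.8 to 13.3 on motor neuron arrays and 8.91 to 9.33 on caudalized arrays. Motor neuron progenitor markers, 7 genes, averaged 10.9 to 11.2 and 10.1 to 10.4 on these. The 8 fibroblast markers averaged 4.74 to 6.38 on the ES arrays, whose cells had a fibroblast layer, and 2.46 to 2.49 on the motor neuron arrays, where all 8 were under 4.

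The ES arrays differed from the other 6 in technical measures as well. The 18S ribosomal control read 5.86 to 6.6 on ES arrays and 15.3 to 15.5 on the others. For Actb, the 3′ control exceeded the 5′ control by 1.87 to 2.30 on ES arrays, and the 2 differed by less than 0.1 on the others. For Tfrc, the same difference ran from 5.59 to 6.86 on ES arrays and from -1.74 to -1.39 elsewhere. For Gapdh the groups overlapped, with 0.63 to 1.05 on ES arrays and 0.51 to 0.65 elsewhere. Within groups, arrays correlated at 0.963 to 0.974 for ES cells, 0.995 to 0.997 for motor neuron cultures and 0.998 for caudalized cultures. Except for Gapdh, these technical measures move with every comparison against ES cells below. The mean of the fibroblast list set all ES arrays apart from motor neuron cultures. Caudalized arrays averaged 4.71 to 4.86, which overlapped ES replicate 1 (4.74) but not ES replicates 2 and 3 (6.21 and 6.38). By gene, 2 of 5 tested fibroblast markers were called lower and 1 higher in caudalized cultures than in ES cells. The part of the technical measures and of the fibroblast markers in these comparisons was not tested. In bulk RNA, fewer cells of a type and less RNA per cell cannot be told apart. Since no label says that the 3 arrays of a group came from separate cultures, the p-values reflect the spread among arrays and nothing more, and that spread may be technical.

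Between ES cells and motor neuron cultures, PRC2 genes were mostly lower or without a call, and PRC1 genes had calls on both sides, in shares near those of all probe sets. Of the 81 member probe sets, 17 (21.0%) were called higher in motor neuron cultures, against 31.9% of all tested probe sets, and 34 (42.0%) were called lower, against 28% of all. Called either way were 51 probe sets, or 63.0%, against 59.9% of all. The members' median log2 difference was -0.69, and that of all tested probe sets was 0.10. By complex, 15 of 26 PRC2 probe sets were called lower and 1 higher, 9 of 32 PRC1 probe sets lower and 11 higher, 4 of 12 demethylase probe sets lower and 2 higher, and 6 of 11 probe sets of the H3K4 methylation genes lower and 3 higher. Under median centring of each array, the split was 16 lower and 1 higher for PRC2 and 10 lower and 10 higher for PRC1. These counts hold several probe sets of some genes. With only the brightest probe set of each gene, 4 of 9 PRC2 genes were called lower and the others had no call. Of 17 PRC1 genes, 6 were then lower and 5 higher, against 30.7% lower and 25.9% higher of all genes. Counted by gene, 19 of 36 had calls to the lower side alone (29.8% of all tested genes), 9 to the higher side alone (33.6%), 2 had calls on both sides (7.17%) and 6 had none.

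**Figure D1:**
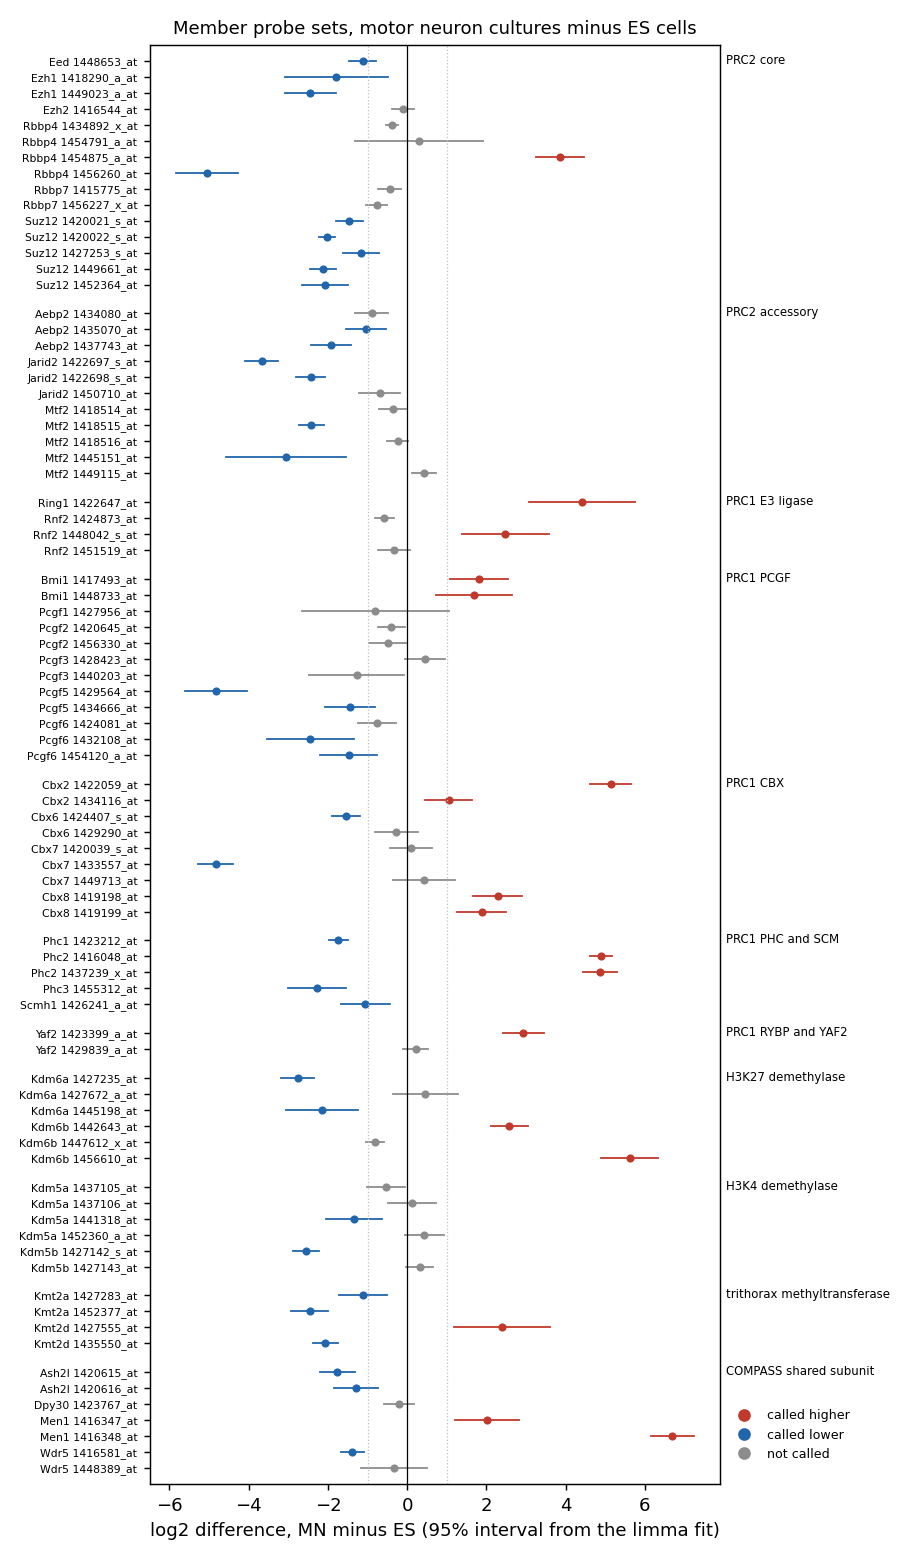
Log2 difference of each tested member probe set between motor neuron cultures (MN) and ES cells, with its 95% interval from the limma fit, ordered by role; red points were called higher, blue lower and grey neither. PRC2 rows lie mostly left of 0, while the PRC1, demethylase and H3K4 methylation rows hold large differences on both sides.

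Suz12, the PRC2 subunit that anchors the complex to chromatin, fell on all 5 of its tested probe sets. Its brightest, 1420022_s_at, read 13.82, 13.78 and 13.71 at day 0, 11.71, 11.73 and 11.80 in motor neuron cultures, with 11.80, 11.67 and 11.54 in caudalized cultures. The ES arrays were above all others and the day 5 groups overlapped. The drop was -2.02 ± 0.09, a 4.06-fold lower level (adjusted p = 7.02e-08), and across the 5 probe sets the differences ran from -2.13 to -1.16. The smallest, 1427253_s_at, was -0.98 and no longer called without ES replicate 2.

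Eed, which binds the trimethyl mark and stimulates the enzyme, read 12.87, 13.39 and 12.79 at day 0, 11.74, 11.97 and 11.95 in motor neuron cultures, with 12.39, 12.34 and 12.28 in caudalized cultures. The 3 groups did not overlap, with ES cells highest and motor neuron cultures lowest. Eed fell by 1.13 ± 0.15 from ES cells to motor neuron cultures (2.18-fold, adjusted p = 0.000122). Without ES replicate 2 the difference was -0.94, under the size needed for a call.

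The enzyme subunits differed from each other. Ezh2, the methyltransferase of dividing cells, read 12.74, 12.33 and 12.48 at day 0, 12.26, 12.45 and 12.53 in motor neuron cultures, with 12.29, 12.26 and 12.38 in caudalized cultures. The 3 groups overlapped, and the difference between motor neuron cultures and ES cells was -0.10 ± 0.12 with a 95% interval from -0.38 to 0.17 (adjusted p = 0.452). The 9 proliferation markers averaged 12.3 to 12.8 on the ES arrays and 11.9 to 12.4 on the motor neuron arrays.

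Ezh1, the paralog known from non-dividing cells, had 2 tested probe sets, and both fell in motor neuron cultures. On 1418290_a_at, the brighter, the day 0 arrays read 7.77, 8.03 and 5.80, motor neuron cultures 4.96, 6.00 and 5.27, and caudalized cultures 7.49, 6.60 and 6.72. ES replicate 3 lay inside the motor neuron range, and the difference of -1.79 ± 0.58 (adjusted p = 0.0186) had an adjusted p of 0.065 without ES replicate 1, 0.0673 without ES replicate 2, 0.0687 without motor neuron replicate 1 and 0.0546 without motor neuron replicate 3. On 1449023_a_at, the day 0 arrays read 7.43, 7.10 and 6.59, motor neuron cultures 4.50, 4.82 and 4.47, and caudalized cultures 5.68, 6.32 and 6.04. Here the 3 groups did not overlap, and the drop from ES cells to motor neuron cultures was -2.44 ± 0.29 (5.43-fold, adjusted p = 4.32e-05).

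Rbbp4 and Rbbp7 are histone-binding WD40 proteins shared by PRC2 and other chromatin complexes. The 4 tested probe sets of Rbbp4 disagreed more than those of any other member, with differences between motor neuron cultures and ES cells from -5.06 to 3.85. The brightest, 1434892_x_at, read 15.00, 15.00 and 14.80 at day 0, 14.54, 14.53 and 14.59 in motor neuron cultures, with 14.40, 14.30 and 14.45 in caudalized cultures, a difference of -0.38 ± 0.07 between the first pair (adjusted p = 0.000763, below the size for a call). On 1454875_a_at, the day 0 arrays read 8.92, 8.44 and 9.74 and motor neuron cultures 12.94, 12.87 and 12.85, a rise of 3.85 ± 0.27 (adjusted p = 1.28e-06). The probe set 1456260_at went the other way, with 10.17, 10.34 and 9.11 at day 0 and 4.84, 4.76 and 4.84 in motor neuron cultures, a drop of -5.06 ± 0.35 (adjusted p = 1.11e-06). No direction can be given for Rbbp4 as a gene from these probe sets. On the brighter probe set of Rbbp7, 1456227_x_at, the day 0 arrays read 14.14, 14.19 and 13.78, motor neuron cultures 13.21, 13.17 and 13.43, and caudalized cultures 13.69, 13.64 and 13.75. The motor neuron arrays differed from the ES arrays by -0.76 ± 0.12 (adjusted p = 0.000253) stayed below the size for a call.

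**Figure D2:**
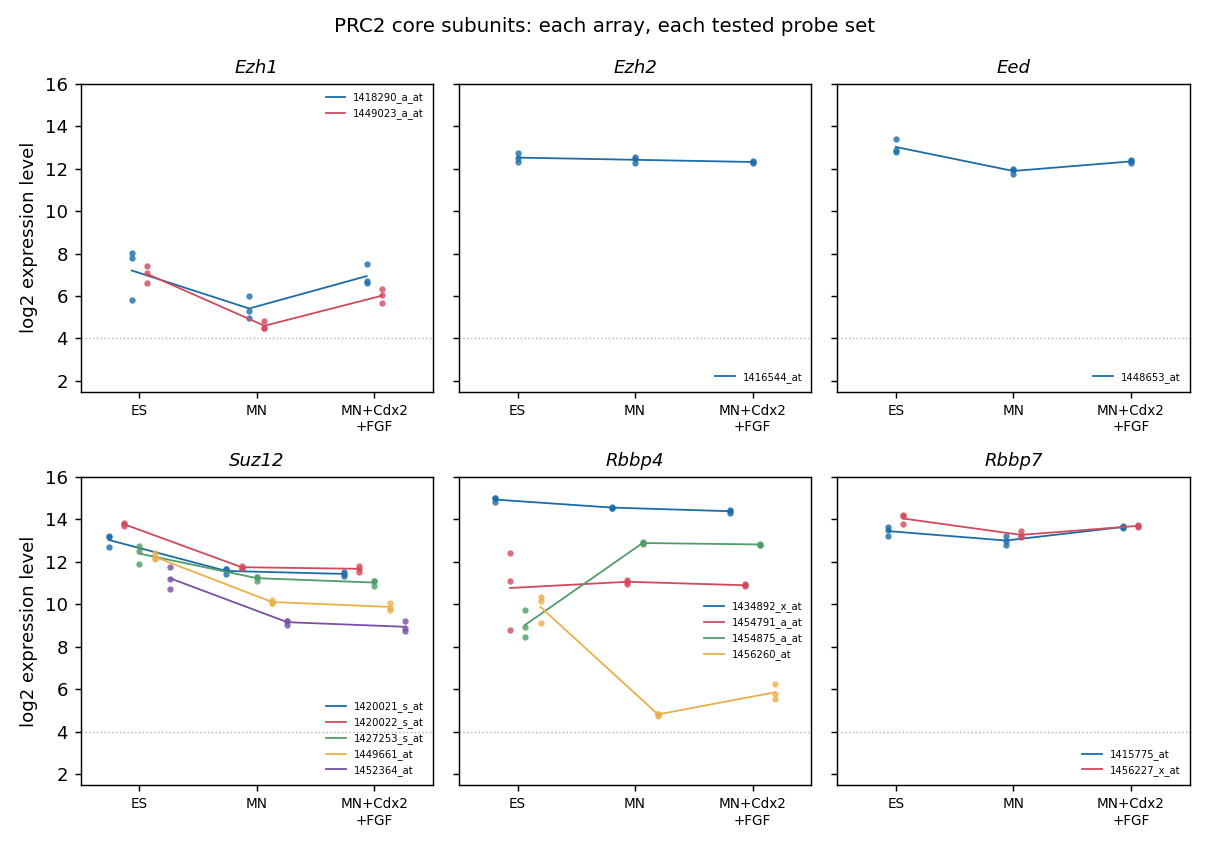
Log2 level of the 6 PRC2 core genes on each array (points) with group means joined by lines, one colour per tested probe set; the dotted line marks 4. MN stands for motor neuron cultures and MN+Cdx2+FGF for caudalized cultures. The 5 Suz12 lines drop together between ES cells and motor neuron cultures, Ezh2 stays near 12.4, and the Rbbp4 lines cross.

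All 3 tested PRC2 accessory genes had calls to the lower side. Jarid2, which helps recruit PRC2, fell on 2 of 3 probe sets. On 1422698_s_at it read 13.35, 13.85 and 13.52 at day 0, 11.25, 11.19 and 10.99 in motor neuron cultures, with 10.13, 9.83 and 10.23 in caudalized cultures, 3 steps without overlap, with a drop of -2.43 ± 0.16 from ES cells to motor neuron cultures (adjusted p = 8.68e-07). The probe set 1422697_s_at fell by 3.67 ± 0.18 in the same comparison, and 1450710_at gave -0.69 ± 0.23 without a call. Mtf2, a Polycomb-like protein that directs PRC2 to CpG islands, was called lower on 2 of 5 probe sets, 1418515_at at -2.42 ± 0.14 and 1445151_at at -3.05 ± 0.67. Its other 3 ran from -0.37 to 0.41, with the brightest, 1418516_at, at -0.24. Aebp2, a zinc finger cofactor, was called lower on 2 of 3 probe sets, at -1.05 ± 0.22 and -1.92 ± 0.22. The first of these, 1435070_at, lost its call without ES replicate 1 (-0.93) or with motor neuron replicate 1 left out (-0.80). The brightest Aebp2 probe set, 1434080_at, gave -0.90 without a call.

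In PRC1 the ligase subunit Ring1 rose. Its single tested probe set, 1422647_at, read 3.62, 4.76 and 6.49 at day 0, 9.10, 9.54 and 9.48 in motor neuron cultures, with 8.89, 9.04 and 8.90 in caudalized cultures. Every day 5 array was above every ES array, although the ES arrays themselves spanned almost 3 log2 units, and the rise to motor neuron cultures was 4.42 ± 0.59 (at least 19.6-fold, adjusted p = 0.000107). Rnf2, the ligase on which embryos depend, gave -0.58 ± 0.11 and -0.32 ± 0.18 on its brighter probe sets 1424873_at and 1451519_at, neither called. The dim probe set 1448042_s_at, was called higher at 2.48 ± 0.48. With values under 4 raised to 4 that call was lost (0.81, adjusted p = 0.0945).

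The PCGF subunits decide which form of PRC1 is built. Bmi1, the PCGF protein of canonical PRC1, rose on both of its probe sets. On 1417493_at the day 0 arrays read 8.07, 9.46 and 8.99, motor neuron cultures 10.33, 10.84 and 10.80 and caudalized cultures 10.22, 10.36 and 10.57, a rise of 1.82 ± 0.33 (3.52-fold, adjusted p = 0.000714). All day 5 arrays were above all ES arrays, and the second probe set, 1448733_at, rose by 1.68 ± 0.42. Pcgf5, found in variant PRC1, fell on both of its probe sets. On 1429564_at, the day 0 arrays read 9.44, 8.63 and 9.59 and motor neuron cultures 3.92, 4.31 and 4.94, a drop of -4.83 ± 0.34 (at least 27.9-fold, adjusted p = 1.43e-06). The other, 1434666_at, was the brighter over all arrays and fell by 1.44 ± 0.28. Pcgf6, known from the germline gene silencing complex of ES cells, was called lower on 2 of 3 probe sets (-2.44 ± 0.48 and -1.48 ± 0.31). The brightest Pcgf6 probe set, 1424081_at, gave -0.77 without a call. Pcgf1, Pcgf2 and Pcgf3 had no call, with differences from -1.27 to 0.44.

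The CBX subunits, which give canonical PRC1 its chromodomain, moved in both directions. Cbx7, the main CBX protein of ES cells, read 10.67, 10.37 and 10.47 at day 0 on 1433557_at, 5.70, 5.61 and 5.70 in motor neuron cultures, with 5.70, 5.96 and 5.74 in caudalized cultures. ES cells stood far above both day 5 groups, and the drop to motor neuron cultures was -4.83 ± 0.20 (28.5-fold, adjusted p = 4.07e-08). The other 2 Cbx7 probe sets gave 0.09 ± 0.24 and 0.42 ± 0.34 without a call, and one of them, 1420039_s_at, showed the same 5.26 on all 3 ES arrays. Cbx2, known from differentiating cells, rose on both of its probe sets. The brighter, 1434116_at, read 8.81, 8.17 and 9.28 at day 0, 9.66, 9.82 and 9.92 in motor neuron cultures, with 9.95, 10.11 and 10.07 in caudalized cultures, a rise of 1.05 ± 0.26 to motor neuron cultures (adjusted p = 0.00481). The size fell under the threshold without ES replicate 2 (0.75), without motor neuron replicate 3 (0.99), with each array centred on its median (0.91) and with quantile normalization repeated (0.96). The other, 1422059_at, read 3.38, 3.38 and 3.75 at day 0 and 8.60, 8.73 and 8.61 in motor neuron cultures, a rise of 5.14 ± 0.23 (at least 25.1-fold, adjusted p = 6.92e-08).

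Cbx8, another CBX protein of differentiated cells, also rose on both probe sets. On 1419198_at it read 3.36, 3.64 and 2.94 at day 0, 5.98, 5.66 and 5.16 in motor neuron cultures, with 5.16, 5.34 and 5.16 in caudalized cultures, a rise of 2.29 ± 0.28 to motor neuron cultures (at least 3.03-fold, adjusted p = 5.28e-05). Its ES arrays were all under 4. On 1419199_at the rise was 1.88 ± 0.27, at least 1.56-fold, and with values under 4 raised to 4 the call was lost (0.64). Cbx6, a further CBX protein, went down: on 1424407_s_at it read 12.33, 12.60 and 12.05 at day 0, 10.86, 10.74 and 10.71 in motor neuron cultures, with 10.06, 10.31 and 10.27 in caudalized cultures. The groups formed 3 separate steps, and the drop to motor neuron cultures was -1.56 ± 0.16 (2.94-fold, adjusted p = 1.44e-05). The second Cbx6 probe set, 1429290_at, gave -0.27 ± 0.24 without a call, and the mean over the gene's probe sets gave -0.91, also without one.

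The PHC proteins link PRC1 units through their SAM domains. Phc1 fell and Phc2 rose. Phc1 read 13.62, 13.32 and 13.38 at day 0, 11.67, 11.69 and 11.75 in motor neuron cultures, with 11.81, 11.55 and 11.69 in caudalized cultures on 1423212_at, a drop of -1.74 ± 0.11 to motor neuron cultures (3.33-fold, adjusted p = 5.78e-07). Phc2 went from 8.05, 7.74 and 7.71 at day 0 to 12.70, 12.77 and 12.74 in motor neuron cultures on 1416048_at, with 12.46, 12.57 and 12.54 in caudalized cultures. Its rise was 4.90 ± 0.12 (29.9-fold, adjusted p = 4.01e-09), and the brighter 1437239_x_at rose by 4.87 ± 0.19, from 7.70, 8.32 and 8.39 to 13.05, 12.90 and 13.08. For both genes the ES arrays lay clear of all day 5 arrays, in opposite directions. Phc3 read 9.83, 10.18 and 8.90 at day 0, 7.07, 7.38 and 7.65 in motor neuron cultures, with 7.89, 7.71 and 7.72 in caudalized cultures on 1455312_at, a drop of -2.27 ± 0.33 (4.82-fold, adjusted p = 0.000167). Scmh1, which binds PHC proteins, was called lower at -1.05 ± 0.27, and without ES replicate 2 (-0.93) or ES replicate 3 (-0.85) it was not. Yaf2, which takes the place of CBX proteins in variant PRC1, was called higher on 1423399_a_at at 2.93 ± 0.23, while the brighter 1429839_a_at gave 0.21 ± 0.14.

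**Figure D3:**
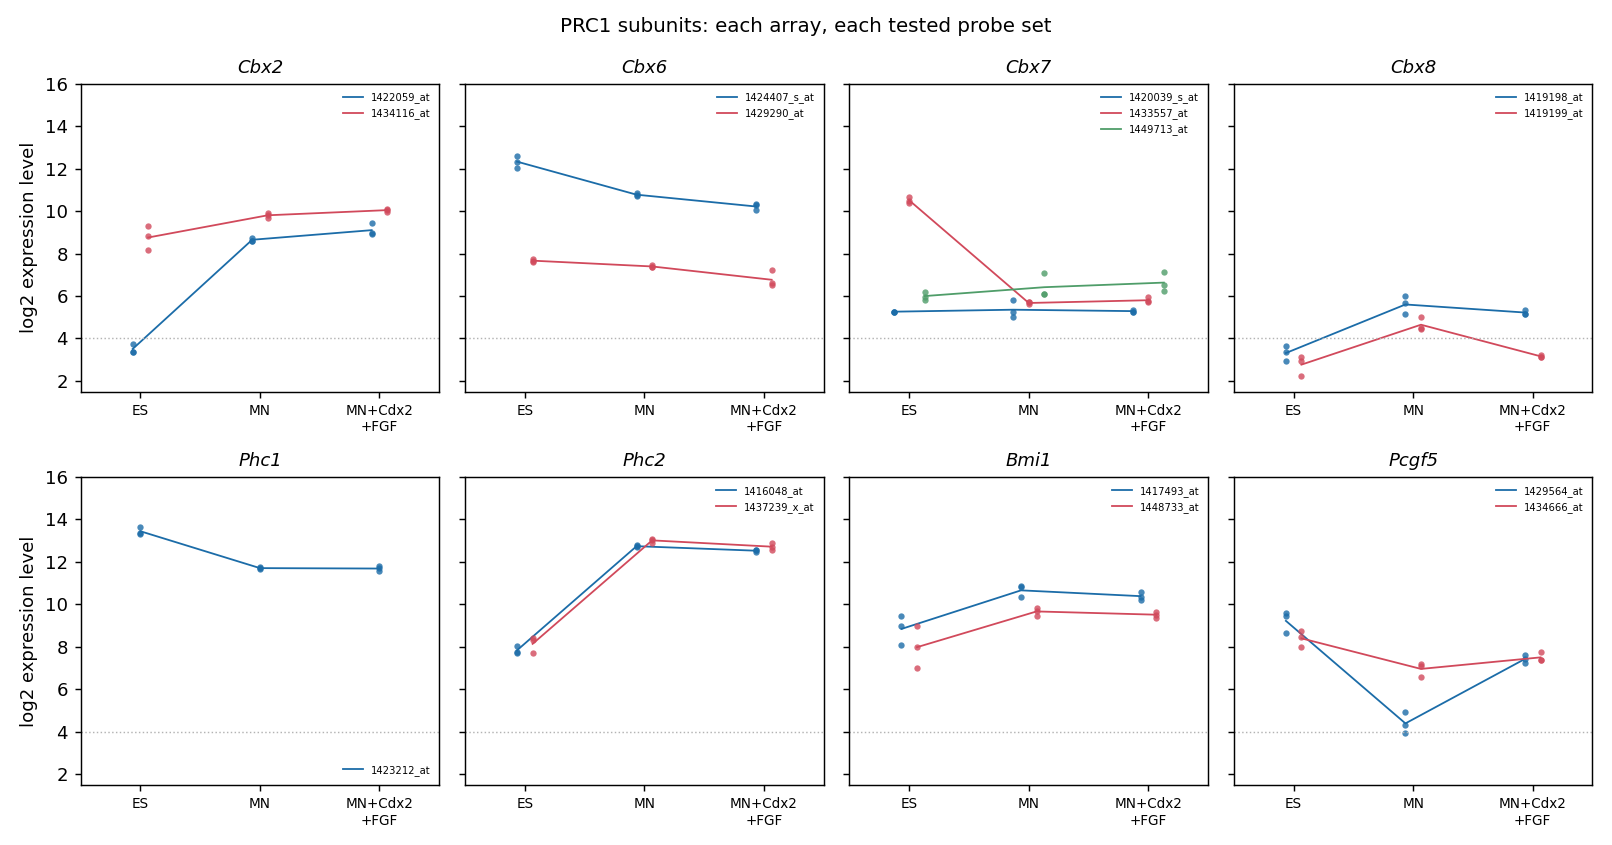
Log2 level of 8 PRC1 genes on each array (points) with group means joined by lines, one colour per tested probe set; the dotted line marks 4. MN stands for motor neuron cultures and MN+Cdx2+FGF for caudalized cultures. Cbx7 1433557_at and Phc1 drop from ES cells to both day 5 groups, Cbx2, Phc2 and Bmi1 climb, and Pcgf5 1429564_at is lowest in motor neuron cultures.

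The H3K27 demethylases also parted. Kdm6a, the X-linked UTX, fell on 2 of its 3 probe sets: 1427235_at read 11.54, 11.21 and 11.50 at day 0, 8.52, 8.56 and 8.87 in motor neuron cultures, with 8.74, 8.40 and 8.73 in caudalized cultures. The drop was -2.77 ± 0.18 (6.81-fold, adjusted p = 8.26e-07), and 1445198_at fell by 2.15 ± 0.40. The third and brightest over all arrays, 1427672_a_at, read 9.25, 8.49 and 10.05 at day 0, 9.44, 9.95 and 9.78 in motor neuron cultures, with 10.18, 9.90 and 9.64 in caudalized cultures. Those groups overlapped, with a difference of 0.46 ± 0.36 (adjusted p = 0.266).

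Kdm6b, the inducible JMJD3, rose on 2 of its 3 probe sets. On 1456610_at it read 2.93, 3.30 and 2.33 at day 0, 8.24, 8.86 and 8.33 in motor neuron cultures, with 8.64, 8.83 and 8.24 in caudalized cultures, a rise of 5.62 ± 0.32 to motor neuron cultures (at least 22.3-fold, adjusted p = 3.1e-07). On 1442643_at the value was 2.56 on all 3 ES arrays and 5.14 on all 3 motor neuron arrays, so the spread within those groups was not measured there, and the rise of 2.58 ± 0.21 rests on the spread of the caudalized arrays and of other probe sets. Its ES value lies under 4, and with low values raised to 4 the difference was 1.14 on the log2 scale, a lower bound. The brightest, 1447612_x_at, read 12.60, 12.55 and 12.51 at day 0 and 11.84, 11.81 and 11.58 in motor neuron cultures. It went the other way, at -0.81 ± 0.10 (adjusted p = 6.74e-05), which stayed below the size for a call.

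Among the H3K4 demethylases, Kdm5b fell on 1427142_s_at, at -2.55 ± 0.15 (5.85-fold, adjusted p = 3.65e-07), from 13.11, 12.67 and 13.21 to 10.50, 10.46 and 10.37. The brighter over all arrays, 1427143_at, gave 0.31 ± 0.15, with 11.78, 11.14 and 11.36 at day 0 and 11.71, 11.78 and 11.74 in motor neuron cultures. One of the probe sets thus showed a clear step and the other overlapping groups. Kdm5a was called lower on 1 of 4 probe sets, 1441318_at at -1.34 ± 0.31, and its other 3 ran from -0.54 to 0.43.

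The trithorax methyltransferase Kmt2a, or MLL1, fell on both of its probe sets. On 1452377_at the day 0 arrays read 10.19, 10.40 and 10.55, motor neuron cultures 7.65, 8.22 and 7.87 and caudalized cultures 7.87, 8.09 and 8.15, a drop of -2.47 ± 0.21 (5.52-fold, adjusted p = 4.35e-06). The second, 1427283_at, the brighter over all arrays, fell by 1.11 ± 0.27 and lost its call without ES replicate 3 (-0.97) or motor neuron replicate 1 (-0.95). Kmt2d, the enhancer H3K4 methyltransferase, was called in both directions. Its bright 1435550_at fell by 2.06 ± 0.14, from 12.32, 12.67 and 12.86 to 10.47, 10.58 and 10.61, while its dim 1427555_at rose by 2.40 ± 0.53 (at least 3.08-fold), from 3.03, 3.76 and 2.88 to 4.50, 6.02 and 6.36.

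Other subunits of the H3K4 methyltransferase complexes moved apart too. Men1, or menin, which tethers Kmt2a to chromatin, rose on both of its probe sets. The dimmer, 1416348_at, read 2.30, 2.63 and 2.69 at day 0, 9.08, 9.26 and 9.36 in motor neuron cultures, with 9.13, 9.67 and 9.08 in caudalized cultures, a rise of 6.69 ± 0.24 (at least 37.6-fold, adjusted p = 2.11e-08). The brighter, 1416347_at, read 9.18, 7.62 and 8.81 at day 0 and 10.45, 10.57 and 10.64 in motor neuron cultures, a rise of 2.01 ± 0.35 (4.04-fold, adjusted p = 0.000617). Both put every day 5 array above every ES array, and the ES arrays of 1416348_at were all under 4. Ash2l, needed for H3K4 trimethylation, fell on both probe sets (-1.77 ± 0.19 and -1.29 ± 0.24). Wdr5, the scaffold of the same complexes, was called lower on 1416581_at at -1.39 ± 0.13, while 1448389_at gave -0.33 ± 0.37. Dpy30 read 12.60, 12.28 and 13.02 at day 0 and 12.36, 12.38 and 12.54 in motor neuron cultures, and the groups overlapped (-0.20 ± 0.16, adjusted p = 0.28).

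**Figure D4:**
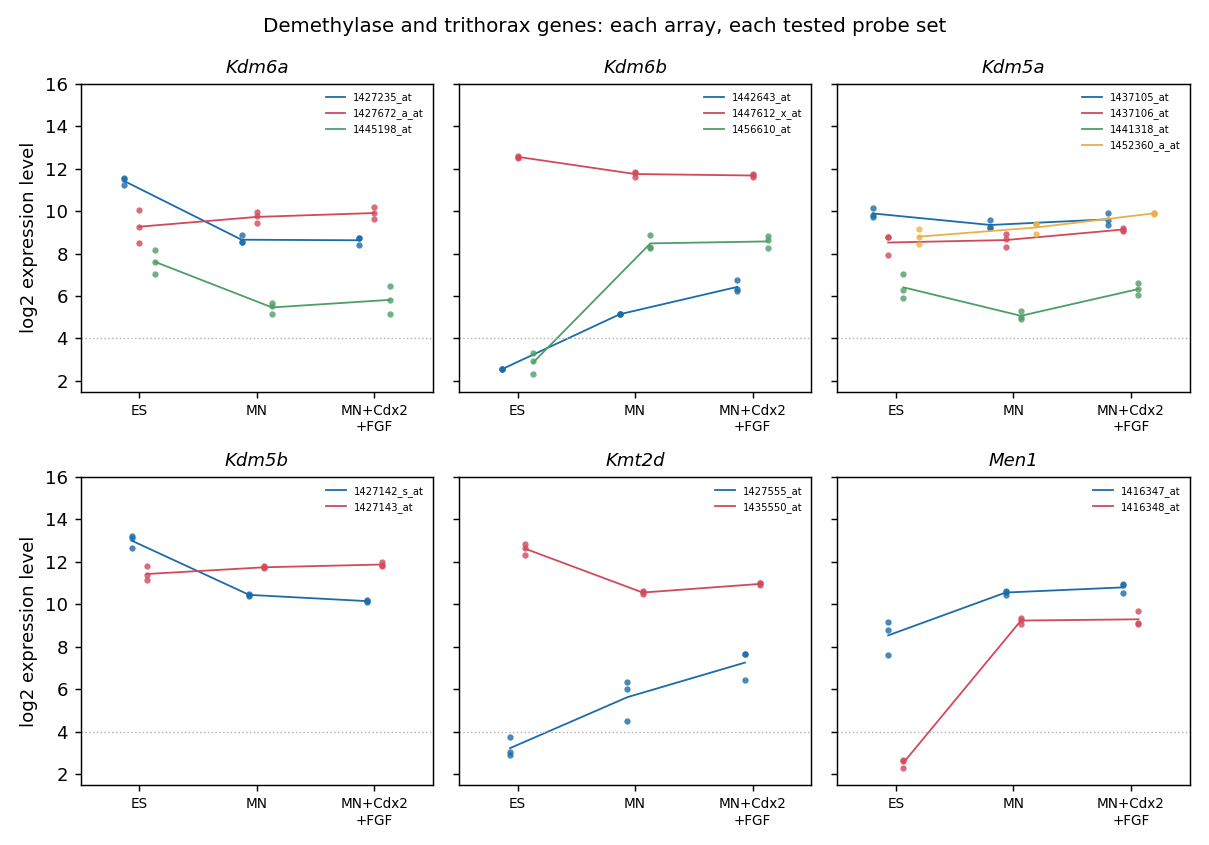
Log2 level of 4 demethylase genes, Kmt2d and Men1 on each array (points) with group means joined by lines, one colour per tested probe set; the dotted line marks 4. MN stands for motor neuron cultures and MN+Cdx2+FGF for caudalized cultures. Probe sets of Kdm6a, Kdm6b, Kdm5b and Kmt2d go in different directions between ES cells and motor neuron cultures, and both Men1 probe sets climb.

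Agreement between probe sets of a gene could be examined for 28 genes with at least 2 tested probe sets. Of the 81 tested, 23 had names ending in x_at, s_at or a_at, which mark probe sets that may match more than 1 transcript. In the comparison of motor neuron cultures with ES cells, 18 of the 28 (64.3%) had differences of the same sign on all of their probe sets. The share was 57.6% of all genes with at least 2 tested probe sets. Of the 28, 2, Rbbp4 and Kmt2d, were called in both directions, which is 7.14% against 15.1% of all such genes. Of the 25 with any call, 10 had every tested probe set called the same way, 40% against 32% of all genes. These were Ezh1, Suz12, Pcgf5, Kmt2a and Ash2l on the lower side and Bmi1, Cbx2, Cbx8, Phc2 and Men1 on the higher side. The range of differences within a gene had a median of 1.74 log2 units for members and 2.01 for all genes.

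Fewer members differed between caudalized and motor neuron cultures. Of the 81 probe sets, 7 (8.64%) were called higher in caudalized cultures, against 10.9% of all tested probe sets, and 2 (2.47%) were called lower, against 8.55% of all (11.1% and 19.4% either way). The median log2 difference was 0.02 for members and 0.04 for all tested probe sets. The 9 calls lay in 9 genes, 7 higher (14.1% of all tested genes) and 2 lower (10.7%), with 0 called both ways (0.0825%). In 0 of the 9 genes was every tested probe set called, against 41% of all genes with at least 2 tested probe sets and a call. Of the 28 members with at least 2 tested probe sets, 18 (64.3%) had differences of the same sign on all of them, against 73.6% of all such genes. With the highest-mean probe set of each gene alone, limma called 0 genes higher, with 5 higher at an unadjusted p under 0.05, and 1 lower. Without motor neuron replicate 1, 3 probe sets were called higher, and without caudalized replicate 1, 4 were. Without caudalized replicate 2, 1 probe set was called lower.

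**Figure D5:**
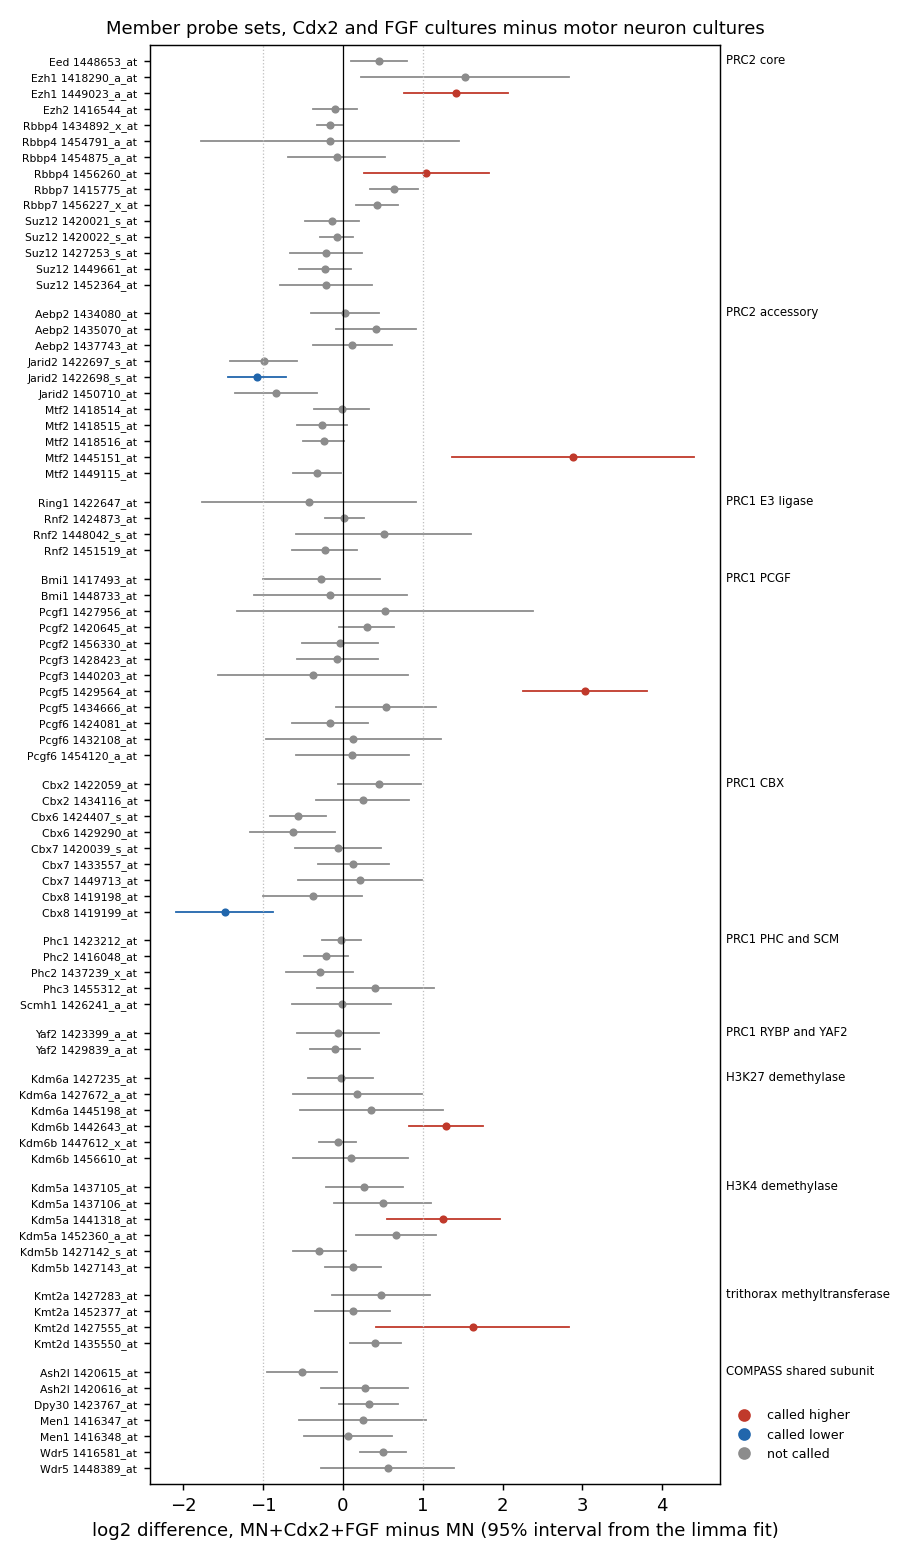
Log2 difference of each tested member probe set between caudalized cultures and motor neuron cultures (MN), with its 95% interval from the limma fit, ordered by role; red points were called higher, blue lower and grey neither. Most points lie within 1 log2 unit of 0, and the 7 red and 2 blue points belong to 9 different genes.

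The largest of these differences was on Pcgf5 1429564_at, which read 3.92, 4.31 and 4.94 in motor neuron cultures, with 7.62, 7.43 and 7.23 in caudalized cultures, a rise of 3.04 ± 0.34 (at least 8.05-fold, adjusted p = 0.000182). All caudalized arrays were above all motor neuron arrays and below all ES arrays. The second Pcgf5 probe set, 1434666_at, read 6.58, 7.10 and 7.19, then 7.76, 7.37 and 7.37, and its difference of 0.54 ± 0.28 was not called (adjusted p = 0.185). Ezh1 rose by 1.42 ± 0.29 on 1449023_a_at (2.67-fold, adjusted p = 0.00549), and 1418290_a_at gave a difference of similar size, 1.52 ± 0.58, without a call (adjusted p = 0.0793). In limma, 1418290_a_at was called in 3 of 21 alternatives. These were only the 6 arrays compared (adjusted p = 0.02), array weights (0.00529) and ES replicate 3 left out (0.0101). The SE pools the spread of all 3 groups, whose median standard deviation was 0.40 for ES cells, 0.16 for motor neuron and 0.12 for caudalized cultures. On both Ezh1 probe sets every motor neuron array was below every caudalized array.

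Kdm6b 1442643_at rose by 1.29 ± 0.21 (2.45-fold, adjusted p = 0.00153), from the repeated 5.14 to 6.31, 6.22 and 6.75. The other 2 Kdm6b probe sets, both brighter in these cultures, gave -0.07 ± 0.10 and 0.10 ± 0.32. Mtf2 1445151_at read 3.63, 5.18 and 4.32 in motor neuron cultures, with 7.56, 6.64 and 7.57 in caudalized cultures, a rise of 2.88 ± 0.67 (at least 6.78-fold, adjusted p = 0.0108). Without motor neuron replicate 1 its adjusted p was 0.0521, and the other 4 Mtf2 probe sets ran from -0.33 to -0.02 without a call. Of the 9 calls, those of Pcgf5, Ezh1 and Kdm6b held in every alternative in which the probe set was tested.

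The remaining calls to the higher side were less steady. Kdm5a 1441318_at read 4.90, 5.27 and 5.03, then 6.34, 6.05 and 6.59, a rise of 1.26 ± 0.31 (adjusted p = 0.0154). Its adjusted p was 0.0603 without motor neuron replicate 1, 0.0535 without caudalized replicate 1 and 0.0643 without caudalized replicate 3. The other 3 Kdm5a probe sets gave 0.26 to 0.66 without a call. Kmt2d 1427555_at read 4.50, 6.02 and 6.36, then 7.68, 7.64 and 6.44, groups that nearly met, with a rise of 1.63 ± 0.53 (adjusted p = 0.0482). Rbbp4 1456260_at rose by 1.04 ± 0.35 (adjusted p = 0.0495), to 6.25, 5.54 and 5.79. Each of these lost its call in 11 alternatives. For Kmt2d these included the omission of ES replicate 1 or 3, motor neuron replicate 1 or 2, or caudalized replicate 1 or 2, with adjusted p from 0.0525 to 0.158. For Rbbp4 they included the omission of any motor neuron or caudalized array, with adjusted p from 0.069 to 0.178.

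The lower side held Jarid2 and Cbx8. Jarid2 1422698_s_at fell by 1.08 ± 0.16 (2.11-fold, adjusted p = 0.000987), and all 3 Jarid2 probe sets had lower values in each caudalized array than in any motor neuron array. The other 2 gave -0.99 ± 0.18 and -0.84 ± 0.23, just under the size for a call, and 1422698_s_at gave -0.96 without caudalized replicate 2. Cbx8 1419199_at read 4.46, 4.48 and 5.00 in motor neuron cultures, with 3.22, 3.13 and 3.13 in caudalized cultures, a drop of -1.48 ± 0.27 (at least 1.56-fold, adjusted p = 0.00317). With values under 4 raised to 4 this was -0.64 and not called, and 1419198_at gave -0.38 ± 0.28. The probe set 1419199_at was over 4 on motor neuron arrays alone. It passed the filter only through the group where it was high, so a call here could only be to the lower side.

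Among the other PRC2 core genes, Eed gave 0.45 ± 0.15 (adjusted p = 0.0566), Ezh2 -0.10 ± 0.12 and the 5 Suz12 probe sets -0.23 to -0.08. The 95% interval of the Ezh2 difference ran from -0.38 to 0.17. Rbbp7 was higher in every caudalized array than in any motor neuron array on both probe sets, at 0.64 ± 0.13 (adjusted p = 0.00585) and 0.42 ± 0.12 (adjusted p = 0.0232), below the size for a call. In PRC1, Phc1 gave -0.02 ± 0.11, Phc2 -0.21 ± 0.12 and -0.29 ± 0.19 and Phc3 0.41 ± 0.33, none called. The CBX members other than Cbx8 ran from -0.63 to 0.45 without a call, with Cbx6 at -0.56 ± 0.16 (adjusted p = 0.0242) and -0.63 ± 0.24. Kdm6a ran from -0.03 to 0.35 on its 3 probe sets, without a call.

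These differences stood beside changes in cell markers between the same groups. All 6 tested motor neuron markers and all 8 postmitotic neuron markers were called lower in caudalized cultures, and 5 of 6 mesoderm and smooth muscle markers were called higher. The mesoderm and smooth muscle list of 8 genes averaged 3.11 to 4.26 on motor neuron arrays and 8.92 to 8.98 on caudalized arrays, with Tbx6 and Msgn1 under 4 on every array of both groups. The fibroblast list averaged 2.46 to 2.49 and 4.71 to 4.86, with Thy1, Dcn, Lum and Postn under 4 on every array of both groups. The 9 proliferation markers averaged 11.9 to 12.4 and 12.7. The part of these marker shifts in the differences of the members was not tested.

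Against ES cells, the caudalized cultures had 17 member probe sets called higher (21.0%, against 31.4% of all tested probe sets) and 28 called lower (34.6%, against 24.7% of all), so that 55.6% were called either way, against 56.1% of all. By gene, 10 were higher (34.2% of all tested genes), 17 lower (26.4%) and 2 both ways (7.22%), again Rbbp4 and Kmt2d. Of 25 genes with at least 2 tested probe sets and a call, 7 had every probe set called the same way, 28% against 26% of all genes. This comparison shares the ES arrays with that of the motor neuron cultures, and its values are given side by side with it rather than as a second test. Men1 1416348_at was at least 39.2-fold higher than in ES cells (at least 37.6-fold in motor neuron cultures), Cbx2 1422059_at at least 34.3-fold (at least 25.1-fold) and Ring1 at least 14.5-fold (at least 19.6-fold). Phc2 1416048_at differed by 4.69 ± 0.12 (4.90). On the lower side, Cbx7 1433557_at differed by -4.70 ± 0.20 (-4.83 in motor neuron cultures) and Jarid2 1422697_s_at by -4.66 ± 0.18 (-3.67). Kdm6b 1456610_at was at least 23.8-fold higher (at least 22.3-fold), and Rbbp4 1456260_at gave -4.02 ± 0.35 (-5.06). These 8 were picked as the largest calls of this comparison, so their call here follows from the choice. They were also called in motor neuron cultures, against the same ES arrays. Men1, Cbx2, Phc2 and Jarid2 had every tested probe set called the same way here, and Ring1 had 1 tested. Kdm6b 1442643_at was called higher (3.87), but the brightest Kdm6b probe set, 1447612_x_at, gave -0.88 without a call. Rbbp4 1454875_a_at was called higher (3.78), and the other 2 Rbbp4 probe sets gave -0.55 and 0.13. The other 2 Cbx7 probe sets gave 0.03 and 0.63 without a call. Eed gave -0.68 ± 0.15 and Wdr5 1416581_at -0.89 ± 0.13 here, under the size for a call that they reached in motor neuron cultures. Ezh1 1449023_a_at was called lower at -1.03 ± 0.29, and without ES replicate 1 (-0.83) or caudalized replicate 1 (-0.86) it was not. Kdm5a 1452360_a_at was called higher at 1.10 ± 0.22, and without ES replicate 3 (0.93), with quantile normalization repeated (0.94) or with median centring (0.89) it was not.

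Lists of the other genes of these pathways were counted in the same way. Of 21 tested genes in further Polycomb complexes, 10 were called higher in motor neuron cultures than in ES cells, 7 lower and 2 both ways. Over all tested genes, these shares were 33.6%, 29.8% and 7.17%, the background for the counts of each list. Lcor, which carries a PRC2-binding protein as one of its products, went from 2.81, 2.59 and 3.24 at day 0 to 11.44, 11.35 and 11.09 on 1429633_at, at least 157-fold. Auts2, a partner of Pcgf5 in variant PRC1 in neural tissue, rose at least 46.5-fold on 1452379_at and Fbrs, its relative, at least 34.3-fold on 1425276_at. Folds in these lists belong to the called probe set of largest change in each gene, and most of the genes' other probe sets are not given. Among 16 further H3K4 methylation genes, 5 were called higher, 6 lower and 2 both ways, with Kmt2e at least 77.7-fold, Setd7, an H3K4 monomethyltransferase, at least 27.9-fold and Hcfc1 9.38-fold higher on the probe sets of largest change, and Hcfc1 lower on another. A further list of 8 genes held histone demethylases and their corepressors, not all of them acting on H3K4 or H3K27. Of these, 4 were called higher, 2, Kdm5c and Rcor1, both ways, and 2 had no call. Kdm5c, the X-linked H3K4 demethylase, was at least 107-fold higher on 1426498_at and lower on another probe set, and Kdm2a was at least 21.1-fold and Phf8 7.83-fold higher. The SWI/SNF remodelling complex, also of the trithorax group, had 11 of 18 tested genes called higher, 5 lower and 1 both ways. Arid2 was at least 72.5-fold higher on 1432483_at and lower on another, Smarcc2, a core subunit, 18.7-fold higher, and Dpf2 at least 17.5-fold lower.

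With Cdx2 and FGF, 2 of the 21 further Polycomb genes were called higher and 3 lower than in motor neuron cultures, against 14.1% and 10.7% of all tested genes. Scml4 read 9.19, 8.63 and 8.40 in motor neuron cultures, with 2.17 on all 3 caudalized arrays, at least 26.7-fold lower (adjusted p = 3.08e-07). Lcor was 3.73-fold lower on 1455121_at, and Bcorl1, a variant PRC1 subunit, was 2.78-fold higher. Setd7 was the 1 call among the 16 H3K4 methylation genes, 3.25-fold higher, with 8.45, 8.97 and 8.98 in motor neuron cultures, with 10.51, 10.54 and 10.44 in caudalized cultures. In the list of 8 demethylase and corepressor genes, Rcor1, a corepressor that works with Kdm1a, was 2.64-fold higher (adjusted p = 0.0472) and Kdm1b 2.14-fold lower. In the SWI/SNF list, Ss18l1, a subunit of the neuronal form, was 3.23-fold and Smarcc2 2.81-fold lower, and Smarcd2 was 2.02-fold higher. All 8 postmitotic neuron markers were lower in the same comparison.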

How the data were processed

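Per the labels' protocols, a NuGEN Ovation kit was used to amplify and label total RNA, which was hybridised to 9 Affymetrix mouse arrays. The submitters' processing notes name 2 tools, GCRMA and limma, with no version. The deposited values were log2 expression levels per probe set, read as such from their range of 2.165 to 16.12, and were used without further normalization. Probe sets were named from the platform annotation: of 45101, 34958 named 1 gene, 932 several and 9211 none. Each probe set was fitted in limma 3.58.1 (R 4.3.3) with a mean per group over the 9 arrays (eBayes with trend, 6 residual degrees of freedom). The procedure was tested on simulated data with normal errors of the same spread in every group and no floor. That test does not cover the larger spread of the ES arrays or the repeated low values. The number of arrays limits the precision.

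The members and gene lists were chosen with earlier results of these data known. Named in full were, per comparison, up to 8 member genes of largest called difference without overlap, all PRC2 core, CBX and PHC members, Kdm6a and Kdm6b, and up to 3 genes per further list. A gene was described by its brightest probe set or by called probe sets of larger difference. For most genes, probe sets called otherwise were given beside these. Alternatives covered normalization, centring, low values, the variance model, array weights, the choice of probe set and each array left out.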

Additional observations from a re-analysis of the deposited data

How the results depend on the processing

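Of the calls made, 39 of 51 for motor neuron cultures against ES cells, 3 of 9 between caudalized cultures and motor neuron cultures and 36 of 45 between caudalized cultures and ES cells held in every one of the 22 alternatives in which the probe set was tested. The main limits are the number of arrays, the flat values near the floor and the disagreement of probe sets. Centring each array on its median moved the median of all probe sets from 0.10 to -0.04 for motor neuron cultures against ES cells and from 0.14 to -0.07 for caudalized cultures against ES cells. Where a cause is not named by the alternative itself, the cause was not tested.

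With 1 probe set per gene, 36 genes were tested, so counts were smaller. Motor neuron cultures against ES cells then gave 6 higher and 14 lower with the highest-mean probe set, and 8 and 13 when all probe sets of a gene were averaged. Caudalized cultures against ES cells gave 6 higher, 9 lower and 15 genes in one direction with the highest-mean probe set, 9 higher and 11 lower with the mean, and 18 lower without x_at, s_at or a_at probe sets. Caudalized cultures against motor neuron cultures gave 0 higher, 1 lower and 1 gene in one direction with the highest-mean probe set, and 2, 0 and 2 with the mean, where limma gave 4 lower at an unadjusted p under 0.05. In the same comparison there were 4 higher with quantile normalization repeated, 3 higher and 5 genes in one direction with no filter, and 1 lower each with the filter at 6, with low values raised to 4 and without x_at, s_at or a_at probe sets. Leaving out 1 array gave 3 to 7 higher, 1 to 3 lower and 5 to 9 genes in one direction there.

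Averaging all probe sets of a gene turned 7 values that were called before or after the averaging, each set against that of its brightest probe set. Sign changes of values called in neither are not counted. Against ES cells these were, in motor neuron cultures, Kdm5b 1427143_at at -1.01, Kdm6a 1427672_a_at at -1.11, Kmt2d 1435550_at at 0.17 and Kdm6b 1447612_x_at at 2.46. In caudalized cultures they were Kdm5b at -1.05, Kmt2d at 1.19 and Kdm6b at 2.90.

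Correlations of deviations ran from -0.03 to 0.11 between same-numbered arrays of different groups and from -0.14 to 0.06 between others. Between motor neuron and caudalized arrays, same-numbered pairs gave 0.03, 0.11 and 0.07, and the others ran from -0.14 to 0.04. With 3 arrays per group, these values cannot settle whether the replicate numbers pair the arrays. With the replicate block, 5 probe sets were called higher and 2 lower between caudalized cultures and motor neuron cultures.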
